A study of Mus musculus with 16 samples.

Results

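The 10 genes described here are markers and regulators of the endoplasmic reticulum (ER) stress response: Hspa5, Hsp90b1, Pdia4, Herpud1, Sdf2l1, Xbp1, Dnajb9, Atf4, Ddit3 and Trib3. They were taken as a named list of this pathway, matched by Ensembl identifier to symbols, and make up 10 of the 55421 genes in each count table. All 10 passed the filter on low counts in both tissues. RNA-seq was done on 16 mouse libraries, 2 in each of 8 groups that cross tissue, genotype and treatment. The tissues were WAT, an abbreviation the labels leave unexpanded and that commonly stands for white adipose tissue, and liver of C57BL/6 mice on HFD; their age was not given. The genotypes were GPR132fl/fl (fl/fl below) and Lyz2_cre+/_GPR132fl/fl (CKO), in which both carry the floxed Gpr132 gene and Cre is driven from Lyz2, a gene of myeloid cells, so that deletion is aimed at those cells and not at the whole tissue. The treatments were vehicle and NOX_6_18, described as an antagonist of GPR132, a G protein-coupled receptor. The 4 groups of a tissue were therefore fl/fl on vehicle, fl/fl on NOX_6_18, CKO on vehicle and CKO on NOX_6_18. The series describes the samples as macrophages, while the protocol says that tissue was frozen in liquid nitrogen. Whether replicate libraries are different animals is not stated, and p-values here therefore capture just the variation between the deposited libraries, possibly a technical one.

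When unfolded proteins build up in the ER, the membrane sensors ATF6, IRE1 and PERK start the unfolded protein response. ATF6 is cut in the Golgi to a transcription factor that raises ER chaperones, IRE1 splices Xbp1 mRNA into the form that encodes an active factor, and PERK slows translation while favouring that of ATF4, which induces amino acid, redox and death-related genes. Secretory hepatocytes, adipocytes and activated macrophages all depend on this response, and in obesity it is a much studied feature of liver and fat. The 10 genes were read by branch: Hspa5, Hsp90b1, Pdia4, Herpud1 and Sdf2l1 as ATF6 targets, Xbp1 and Dnajb9 as the IRE1-XBP1 branch, and Atf4, Ddit3 and Trib3 as the PERK-ATF4 branch. The branches share targets: Herpud1 and Xbp1, for example, respond to more than 1 sensor. Gene counts cannot tell spliced from unspliced Xbp1 mRNA, and the translation of ATF4 is not seen in RNA.

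The promoters of the 3 ATF6-branch genes that were called higher in liver in each comparison with fl/fl on vehicle (below) are shown because they hold the ER stress response elements for which these genes are known. Sequences are from RefSeq, build GRCm38.p6, from the window of 250 bases before to 50 after the RefSeq start of each gene. Capitals mark motif matches: the ER stress element (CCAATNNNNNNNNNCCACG, 1 match in Hspa5 and 2 in Hsp90b1, the second on the other strand), and in Herpud1 an amino acid response element (TGATGCAA, on the other strand) followed by the second type of ER stress element (ATTGGNCCACG). The Hspa5 stretch is chr2:34772019-34772048 on the plus strand. In the GENCODE M21 annotation used for exon lengths Hspa5 starts earlier, at 34771970, and this stretch overlaps an annotated Hspa5 exon. The Hsp90b1 stretch is chr10:86705524-86705666 on the minus strand and the Herpud1 stretch is chr8:94386304-94386396 on the plus strand, and both overlap no annotated exon.
Hspa5: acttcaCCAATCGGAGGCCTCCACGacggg
Hsp90b1: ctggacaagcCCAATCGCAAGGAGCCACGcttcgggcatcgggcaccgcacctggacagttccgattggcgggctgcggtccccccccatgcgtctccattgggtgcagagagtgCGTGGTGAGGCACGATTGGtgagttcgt
Herpud1: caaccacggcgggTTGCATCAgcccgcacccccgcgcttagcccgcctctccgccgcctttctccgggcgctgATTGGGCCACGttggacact
With both strands searched, the first element was found in 39 of 32851 promoters of the same length (0.119%), the second type in 12 (0.0365%) and the amino acid element in 294 (0.895%). Of the 10 genes, all searched, 2 held the first element (Hspa5 and Hsp90b1) and 1 held the second type and the amino acid element (Herpud1). The promoters of the other genes held none of these 3 in this window. Whether a match goes with a call was not tested. The XBP1-type core TGACGTGG was in 222 promoters (0.676%) and in 0 of the 10 genes. A match is a description of letters and not a shown binding site, and a missing match says only that these letters are not in this window.

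The 10 genes lie on 8 chromosomes of GRCm38, the build named for the files. Hspa5 (2:34771970-34777547) and Trib3 (2:152337422-152344032) are on chromosome 2, and Hsp90b1 (10:86690209-86705509) and Ddit3 (10:127290774-127296288) on chromosome 10. The others are Pdia4 (6:47796141-47813430), Herpud1 (8:94386438-94395377), Xbp1 (11:5520659-5525893), Dnajb9 (12:44205559-44210326), Atf4 (15:80255184-80257541) and Sdf2l1 (16:17130138-17132383). All are protein-coding, and counts are over exons. Exons of Hsp90b1 share 632 bases with other annotated genes, those of Ddit3 share 186 bases with Mars and Gm4189 on the opposite strand and with a second Ddit3 entry, and Pdia4 and Dnajb9 share 14 bases each with a microRNA. The strand setting of the counting was not given, so the counts of these 4 genes are uncertain to that extent.

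Library totals were 48348395 to 58396991 counts in WAT and 45624957 to 60761705 in liver. The 10 genes took 0.235 to 0.294% of the counts in WAT and 0.0657 to 0.0917% in liver, where mitochondrially encoded genes took 43.0 to 44.9%, against 2.31 to 3.61% in WAT. In WAT the 2 libraries of fl/fl on vehicle stood apart from the other 6. The mean chi-square per gene for equal expression was 190 to 227 between them and another group, against 23.8 to 46.6 for replicates and 22.6 to 42.7 for pairs of other groups; in liver these ranges overlapped, at 55.6 to 135, 15.9 to 91.4 and 18.6 to 92.7. The WAT split went with markers of other cells: the summed level of 10 spermatid genes was 78.2 to 82.8 CPM (counts scaled by library total and by TMM, edgeR's factor for differences in RNA composition) in the fl/fl vehicle libraries and 991 to 1106 in the rest, and that of 6 fibroblast genes was 17738 to 18055 and 9220 to 9426. In WAT of fl/fl on vehicle macrophage markers summed to 8006 to 8611 CPM and adipocyte markers to 2288 to 2500, against 1550 to 1731 for the latter in the other 6 libraries. Epididymal epithelium genes summed to 356 to 395 CPM against 961 to 1046, and neutrophil genes to 33.7 to 38.6 against 134 to 157. In liver of the same group 4 of the 10 adipocyte genes, Adipoq, Plin1, Lep and Retn, were at 0. The 10 together still summed to 289 to 294 CPM there and to 305 to 326 in the other liver groups. Alb, the serum protein that hepatocytes make in bulk, averaged 1978 CPM in liver of fl/fl on vehicle. The targeted gene, Gpr132, was at 72.4 and 69.7 CPM in WAT of fl/fl on vehicle, 60.3 and 60.1 on NOX_6_18, 35.6 and 64.5 in CKO on vehicle and 56.4 and 59.1 in CKO on NOX_6_18. In liver it was at 4.26 and 4.04, 2.13 and 1.64, 1.86 and 1.46, and 2.81 and 2.41 CPM in the same order. Gpr132 thus did not separate the libraries labelled CKO from treated fl/fl in either tissue, and every genotype comparison below is between libraries labelled so.

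In liver, 3 of the 5 ATF6-branch genes, Hspa5, Herpud1 and Hsp90b1, were higher in every group other than fl/fl on vehicle, by 1.21 to 1.61 times, while Pdia4 and Sdf2l1 did not pass the test. Hspa5, which encodes BiP, the main ER chaperone and the protein that holds the sensors inactive, was at 161 and 159 CPM in fl/fl on vehicle. It was at 249 and 252 CPM in fl/fl on NOX_6_18, at 266 and 249 in CKO on vehicle and at 244 and 257 in CKO on NOX_6_18. The 2 libraries of fl/fl on vehicle lay below all the other 6, which overlapped with one another. The log2 fold change against fl/fl on vehicle was 0.65 ± 0.05 (SE) on NOX_6_18, 0.69 ± 0.05 in the CKO vehicle group and 0.65 ± 0.05 in CKO on NOX_6_18, with adjusted p from edgeR's quasi-likelihood test of 0.000179, 0.000125 and 0.000175. These 3 comparisons share the same 2 control libraries and are not independent of each other.

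Herpud1, an ER membrane protein that takes part in the disposal of misfolded proteins, was at 58.8 and 59.7 CPM in the fl/fl vehicle group, 90.2 and 100.3 on NOX_6_18, 96.7 and 92.9 in CKO on vehicle and 88.3 and 94.0 in CKO on NOX_6_18. Again both control libraries were below the other 6. The log2 fold changes of Herpud1 were 0.69 ± 0.07, 0.68 ± 0.07 and 0.62 ± 0.07, with edgeR adjusted p of 0.000751, 0.000791 and 0.00128. Hsp90b1, the ER member of the HSP90 chaperones, was at 245 and 254 CPM against 310 and 332, 294 and 311, and 301 and 312, so that the control libraries were again the lowest. It rose less than Hspa5 and Herpud1 in point estimate, by 0.36 ± 0.05, 0.28 ± 0.05 and 0.30 ± 0.05 (edgeR adjusted p 0.00536, 0.0192 and 0.0154). In the CKO comparisons the Hsp90b1 call was lost when 1 library of fl/fl on vehicle was left out: without replicate 1 the adjusted p was 0.116 in the CKO vehicle group and 0.0984 in CKO on NOX_6_18, and without replicate 2 it was 0.0607 and 0.0521. It was also lost without replicate 2 of CKO on vehicle (0.107) or of CKO on NOX_6_18 (0.0914), while the Hspa5 and Herpud1 calls held with each single library left out in turn.

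The remaining ATF6-branch genes did not pass the test. Pdia4, a disulfide isomerase of the ER, was at 57.6 and 57.1 CPM in the fl/fl vehicle group and between 64.9 and 70.5 in the other 6 libraries; its log2 difference on NOX_6_18 was 0.23 ± 0.06 (edgeR adjusted p 0.0843), and in CKO on vehicle it was 0.23 ± 0.06 (0.0824). Sdf2l1, a small partner of BiP, was at 10.1 and 9.64 CPM and between 11.6 and 14.1 elsewhere; its largest log2 difference, 0.44 ± 0.12, was in CKO on NOX_6_18 (edgeR adjusted p 0.0726). For both genes the control libraries were below the others, by less than the test could call.

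In the IRE1-XBP1 branch, Xbp1, the factor whose mRNA IRE1 splices, was at 30.9 and 36.8 CPM in liver of fl/fl on vehicle, 41.8 and 44.0 on NOX_6_18, 54.9 and 44.6 in CKO on vehicle and 48.5 and 52.0 in CKO on NOX_6_18. The control libraries were the lowest, and the spread between replicates was wider than for Hspa5. Xbp1 was called higher in the CKO vehicle group (log2 fold change 0.56 ± 0.12, edgeR adjusted p 0.0308) and in CKO on NOX_6_18 (0.57 ± 0.12, 0.0294), but not in fl/fl on NOX_6_18 (0.34 ± 0.12, 0.16); the difference between CKO and fl/fl on NOX_6_18 was 0.23 ± 0.12 and was not called either. Both Xbp1 calls were lost without replicate 1 of fl/fl on vehicle (edgeR adjusted p 0.169 and 0.159). The former was also lost without replicate 1 of CKO on vehicle (0.167), and the latter without replicate 1 or 2 of CKO on NOX_6_18 (0.0834 and 0.149). Dnajb9, a DNAJ cochaperone known as a target of XBP1 that returns BiP to IRE1, was at 24.6 and 29.2 CPM and between 32.7 and 35.2 in the other 6 libraries. Its log2 difference on NOX_6_18 was 0.34 ± 0.10 and was not called (edgeR adjusted p 0.0841).

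No gene of the PERK-ATF4 branch was called in liver. Atf4, the factor of this branch, was at 55.8 and 51.7 CPM in the fl/fl vehicle group and between 56.3 and 60.5 in the other libraries, with a log2 difference on NOX_6_18 of 0.14 ± 0.07 (edgeR adjusted p 0.314). Ddit3, which encodes CHOP, a factor linked to cell death under lasting stress, was at 7.42 and 6.20 CPM in the control, 10.9 and 8.49 on NOX_6_18, 11.4 and 10.1 in CKO on vehicle and 10.4 and 7.81 in CKO on NOX_6_18. Its log2 differences, 0.51 ± 0.19, 0.66 ± 0.19 and 0.41 ± 0.19, had wider errors than those of Hspa5 and none passed (edgeR adjusted p 0.202, 0.0995 and 0.314). Trib3, a pseudokinase that ATF4 and CHOP induce, was at 2.45 to 3.95 CPM in all 8 liver libraries with overlapping groups, and its log2 difference on NOX_6_18 was -0.25 ± 0.23.

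**Figure D1:**
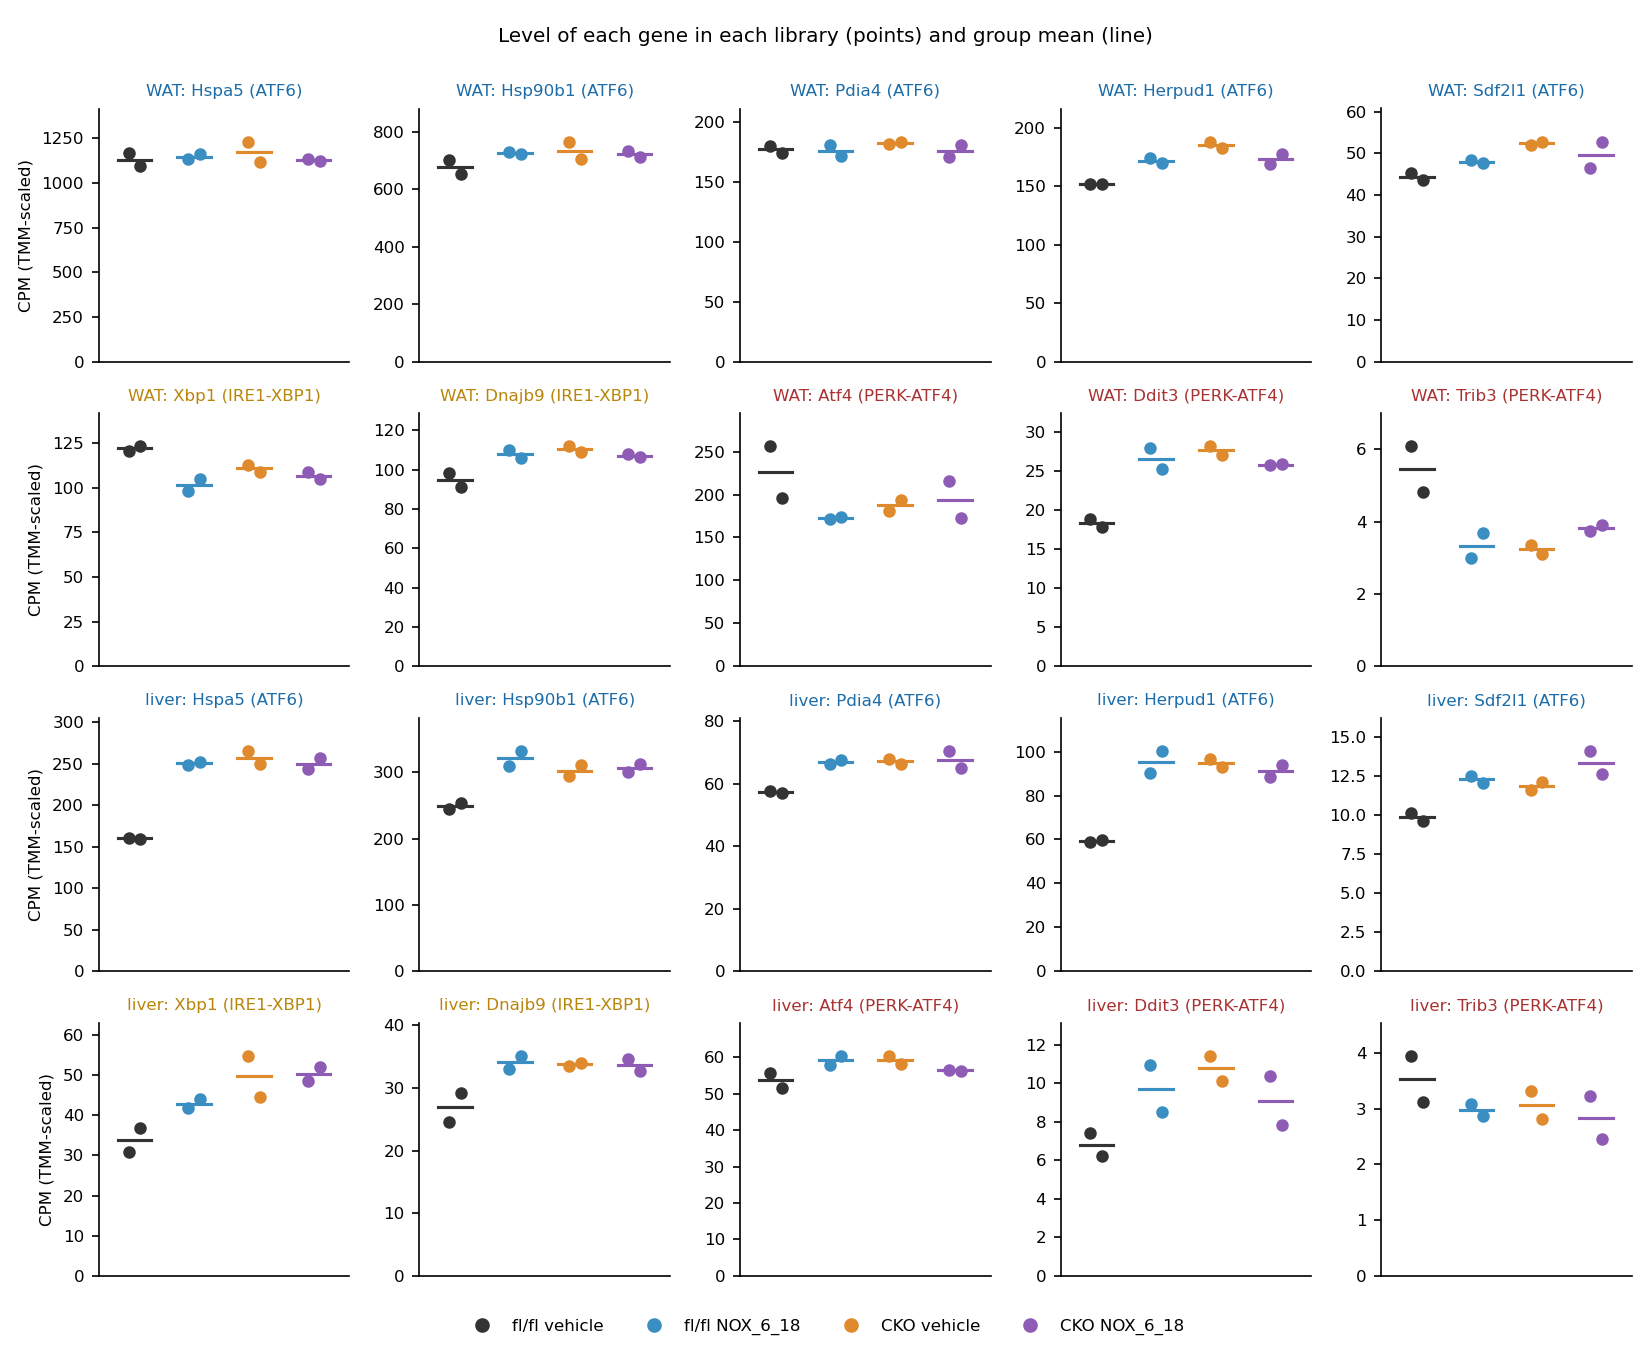
Each panel plots the CPM (scaled by TMM, axis from 0) of 1 gene in 1 tissue, with points for the 2 libraries of each group and a line for the group mean. In liver the Hspa5 libraries of fl/fl on vehicle, at 161 and 159 CPM, sit below the other 6, at 244 to 266, while in WAT the groups overlap for Hspa5, and for Ddit3 the libraries of fl/fl on vehicle lie below the other 6.

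Counted together, 3 of the 10 genes were called higher in liver on NOX_6_18 and 0 lower, where 5.52% of the 19515 tested genes were called. In CKO against fl/fl on vehicle 4 were called higher (5.8% of all genes) and in CKO on NOX_6_18 against fl/fl on vehicle 4 (5.48%). The median log2 difference of the 10 genes was 0.34, 0.30 and 0.37, against -0.005, -0.007 and -0.006 for all tested genes. By branch, the calls on NOX_6_18 were 3 of 5 in the ATF6 branch (median 0.36), 0 of 2 in the IRE1-XBP1 branch (0.34) and 0 of 3 in the PERK-ATF4 branch (0.14). Whether the branches differed from each other was not tested. In these bulk libraries fewer cells of a type and less RNA per cell cannot be told apart.

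Other markers moved between the same liver libraries. On NOX_6_18 5.52% of all tested genes were called, 738 higher and 339 lower. Of 10 hepatocyte genes, 6 were called higher and 2 lower on NOX_6_18, with a summed level of 2748 to 2838 CPM in the fl/fl vehicle group and 3108 to 3190 in the other 6 libraries; none was at 0. Of 8 neutrophil genes, 6 were called higher, and their sum was 20.1 to 24.6 CPM and 97.2 to 108 CPM. Of 8 heat shock genes, chaperones outside the ER response, 5 were higher, among them Hsph1 (log2 fold change 1.21) and Hspd1 (0.64), and 2 lower, Hspa1b (-0.87) and Hspa1a (-0.77). The macrophage markers overlapped, at 1338 to 1368 CPM in the fl/fl vehicle group and 1337 to 1364 in the others. Endothelial markers summed to 3088 to 3136 CPM in the fl/fl vehicle group and 3229 to 3318 in the others, and fibroblast markers to 228 to 230 and 238 to 262. Sums that were lower in the others were those of immediate early genes (876 to 882 and 727 to 795) and of plasma and B cell genes (70.4 to 70.7 and 57.7 to 69.1). The part of these shifts in the levels of the 10 genes was not tested.

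Wider lists of targets of each branch, with the 10 genes left out, were counted the same way. Of all tested genes in liver, 5.52% were called on NOX_6_18 and 5.8% in CKO on vehicle. In CKO on NOX_6_18 against fl/fl on vehicle the share was 5.48%. The all-gene median on NOX_6_18 was -0.005. Of 10 further ATF6 targets, 3 were called higher in liver on NOX_6_18 and 0 lower, with a median log2 difference of 0.22: Manf, a secreted ER stress factor (0.64), the calcium-binding chaperone Calr (0.31) and the disulfide isomerase Pdia6 (0.25). The same 3 were called in CKO on vehicle. In CKO on NOX_6_18 against fl/fl on vehicle 2 were called, Calr and Manf, while Pdia6 was at 0.24 ± 0.06 (edgeR adjusted p 0.0586). Of 17 further XBP1 targets, which are mainly parts of translocation, vesicle transport and ER-associated degradation, 0 were called by edgeR (median 0.06); 2 had an unadjusted p under 0.05, and DESeq2 and limma-voom called 0. Of 26 further PERK-ATF4 targets, 5 were higher and 2 lower (median 0.22). The higher ones were Ddit4, an inhibitor of mTORC1 signalling (1.68), Cth of cysteine synthesis (1.13), the stress sensor Sesn2 (0.53), the amino acid transporter Slc7a5 (0.47) and the factor Atf5 (0.67). The lower ones were Atf3 (-0.59), a factor that is also an immediate early gene, and the secreted stress hormone Gdf15 (-1.55). Ddit4 and Sesn2 are known to respond to other stresses too, so the list's name does not cover all that its members do. Atf5, Atf3 and Gdf15 are named here after their values were seen.

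The sensors themselves showed no call in liver. Of 12 genes of sensors and their processing, edgeR, DESeq2 and limma-voom each called 0 on NOX_6_18, and 0 had an unadjusted p under 0.05; the largest absolute log2 difference was 0.19. Mean levels in fl/fl on vehicle and fl/fl on NOX_6_18 were 58.2 and 56.6 CPM for Atf6, 31.9 and 35.8 for Ern1, which encodes IRE1, and 28.5 and 29.0 for Eif2ak3, which encodes PERK. Of 14 other ER folding enzymes, such as P4hb and the ER oxidase Ero1l, 0 were called by all 3 tools, with 0 at an unadjusted p under 0.05. Of 6 transcripts known to be cut by IRE1, 1 was lower, Scara3 (-0.65), where 5.52% of all tested genes were called.

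In WAT the pattern was different in its members and mixed in direction. Ddit3 and Herpud1 were higher than in fl/fl on vehicle in each of the other groups, and Xbp1 and Trib3 were lower in some of them, while Hspa5 and Pdia4 overlapped between the groups. Ddit3 was at 18.8 and 17.8 CPM in the fl/fl vehicle group, 27.9 and 25.2 on NOX_6_18, 28.2 and 27.1 in CKO on vehicle and 25.7 and 25.9 in CKO on NOX_6_18. The fl/fl vehicle libraries lay below the other 6, which overlapped between their groups. The log2 fold changes were 0.54 ± 0.10, 0.59 ± 0.10 and 0.50 ± 0.10 (edgeR adjusted p 0.00289, 0.00178 and 0.00438). The direction of this Ddit3 difference turned with the scaling: when a trend with GC content and length was removed from each library it was -0.83, -0.78 and -0.88, and when only the shape of that trend was removed it was -0.08, -0.04 and -0.13 and was not called.

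Herpud1 in WAT was at 151.9 and 152.0 CPM in the fl/fl vehicle group, 174.0 and 170.0 on NOX_6_18, 188.4 and 183.1 in CKO on vehicle and 169.5 and 177.7 in CKO on NOX_6_18, with no overlap between the control and the rest. Its log2 fold change was 0.18 ± 0.06, 0.29 ± 0.06 and 0.19 ± 0.06 (edgeR adjusted p 0.0457, 0.00606 and 0.0347), or 1.13, 1.22 and 1.14 times, and it turned to -0.68, -0.58 and -0.68 after removal of the GC and length trend. The calls on NOX_6_18 and in CKO on NOX_6_18 were lost with any single library of either group left out (edgeR adjusted p 0.0768 to 0.196 and 0.061 to 0.185), and that in CKO on vehicle was not.

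Trib3 was at 6.09 and 4.84 CPM in WAT of fl/fl on vehicle and at 2.99 and 3.69, 3.36 and 3.12, and 3.75 and 3.92 in the other groups, so that the control libraries were the highest. Its log2 fold change was -0.71 ± 0.21 on NOX_6_18 and -0.75 ± 0.21 in CKO on vehicle (edgeR adjusted p 0.0286 and 0.0232). In CKO on NOX_6_18 it was -0.51 ± 0.21 and not called (0.0879). The sign of Trib3 held under each scaling, but the calls on NOX_6_18 and in CKO on vehicle were lost with library totals alone (edgeR adjusted p 0.0778 and 0.0619), without replicate 1 of fl/fl on vehicle (edgeR adjusted p 0.123 and 0.0983), without replicate 1 or 2 of fl/fl on NOX_6_18 (0.17 and 0.0566) and without replicate 1 or 2 of CKO on vehicle (0.0763 and 0.11).

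Xbp1 in WAT was at 120.7 and 123.2 CPM in fl/fl on vehicle, above the other 6 libraries, which lay between 98.3 and 112.9 CPM. It was called lower on NOX_6_18 (log2 fold change -0.26 ± 0.07, edgeR adjusted p 0.0157), not in CKO on vehicle (-0.14 ± 0.07, 0.151) and not in CKO on NOX_6_18 (-0.19 ± 0.07, 0.0546). The call on NOX_6_18 was lost without replicate 1 or 2 of fl/fl on NOX_6_18 (0.121 and 0.0537), and under library totals alone the Xbp1 difference was -0.10 and not called. Dnajb9 was at 98.4 and 91.0 CPM in the control and between 105.8 and 111.9 in the others, and was called in CKO on vehicle (0.22 ± 0.07, edgeR adjusted p 0.0369), a call lost without replicate 1 or 2 of CKO on vehicle (0.141 and 0.0894) or replicate 2 of fl/fl on vehicle (0.124) and turned to -0.92 after removal of the GC and length trend.

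The other genes were not called in WAT. Hspa5, the most abundant of the 10, was at 1165 and 1093 CPM in the fl/fl vehicle group and between 1118 and 1231 in the other 6 libraries, with overlapping groups; its log2 difference was 0.02 ± 0.06 on NOX_6_18, 0.19 and called with library totals alone and -0.62 and called after removal of the GC and length trend. It was 0.06 ± 0.06 in CKO on vehicle. Pdia4 overlapped too, at 173.9 to 180.3 CPM and 171.2 to 183.7. Hsp90b1 was at 701.3 and 654.8 CPM and between 704.4 and 766.9 in the others, and Sdf2l1 at 45.4 and 43.5 and between 46.6 and 52.9, both with log2 differences of at most 0.24. Atf4 was at 256.2 and 196.4 CPM in fl/fl on vehicle, the widest replicate gap in proportion among the 10 genes in this group, and between 171.9 and 215.2 elsewhere; its log2 difference on NOX_6_18 was -0.39 ± 0.14 (edgeR adjusted p 0.0561).

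**Figure D2:**
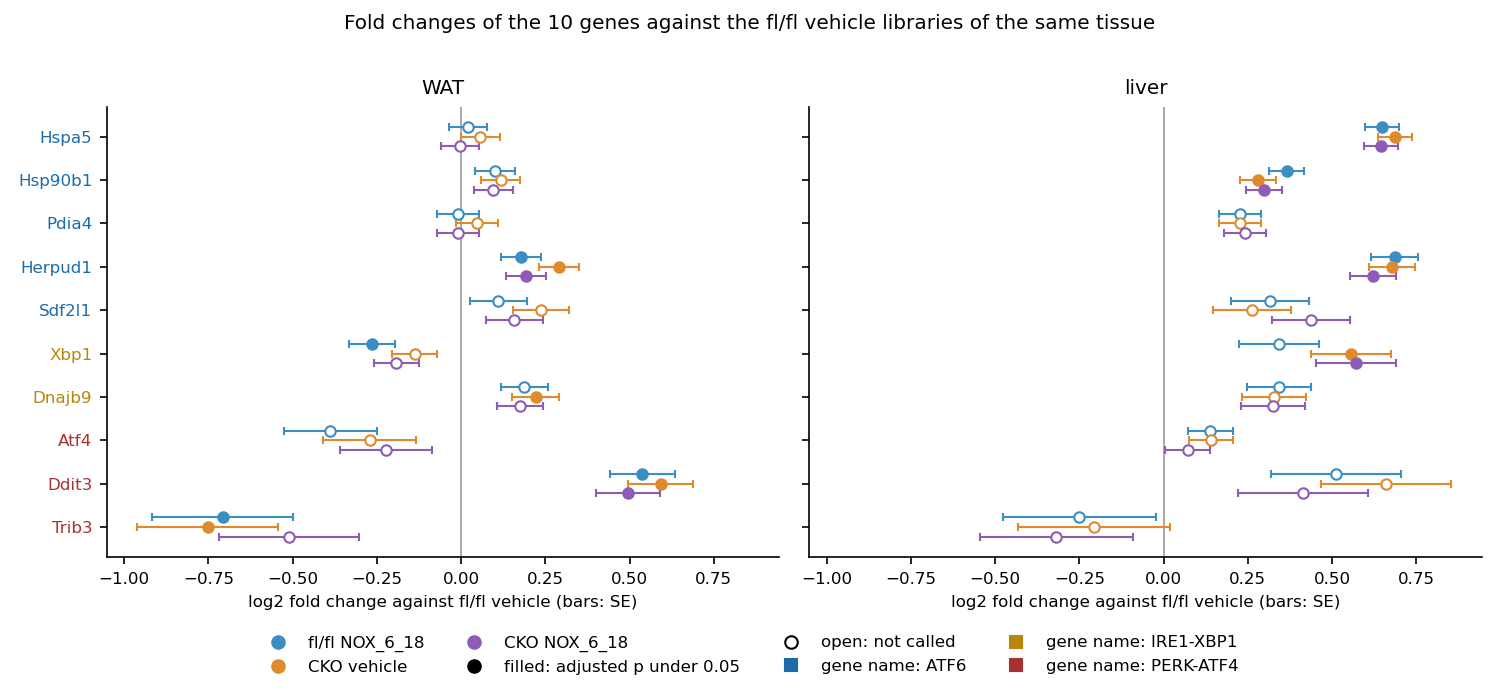
Log2 fold changes against fl/fl on vehicle of the same tissue are plotted for each gene, with bars for the SE, colours for the 3 other groups and filled points for an edgeR adjusted p under 0.05. In liver the filled points lie right of 0 for Hspa5, Herpud1, Hsp90b1 and, in CKO, Xbp1; in WAT they lie right of 0 for Ddit3, Herpud1 and Dnajb9 and left of it for Xbp1 and Trib3.

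Of the 10 genes, 2 were called higher and 2 lower in WAT on NOX_6_18, where 37.8% of the 25871 tested genes were called; the members' share of 4 in 10 is near that background. In CKO on vehicle 3 were higher and 1 lower (36.8% of all genes), and in CKO on NOX_6_18 against fl/fl on vehicle 2 were higher and 0 lower (38.2%). The median log2 difference of the 10 genes was 0.06, 0.09 and 0.05, against 0.12, 0.10 and 0.12 for all tested genes, so the whole distribution was shifted and the members' median lay slightly under it. The all-gene median on NOX_6_18 was 0.13 with relative log expression size factors, 0.29 with library totals alone, -0.43 after removal of the GC and length trend and 0.31 with only its shape removed. In liver the same settings moved the all-gene median by no more than 0.01, and the liver calls of Hspa5, Herpud1, Hsp90b1 and Xbp1 kept their direction and their call under each of them. With only the libraries of the groups compared in the fit, 1, 2 and 1 of the 10 genes were called in the 3 WAT comparisons. Of all genes 8060 of 23641, 7314 of 23423 and 8164 of 23630 were called in those fits.

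**Figure D3:**
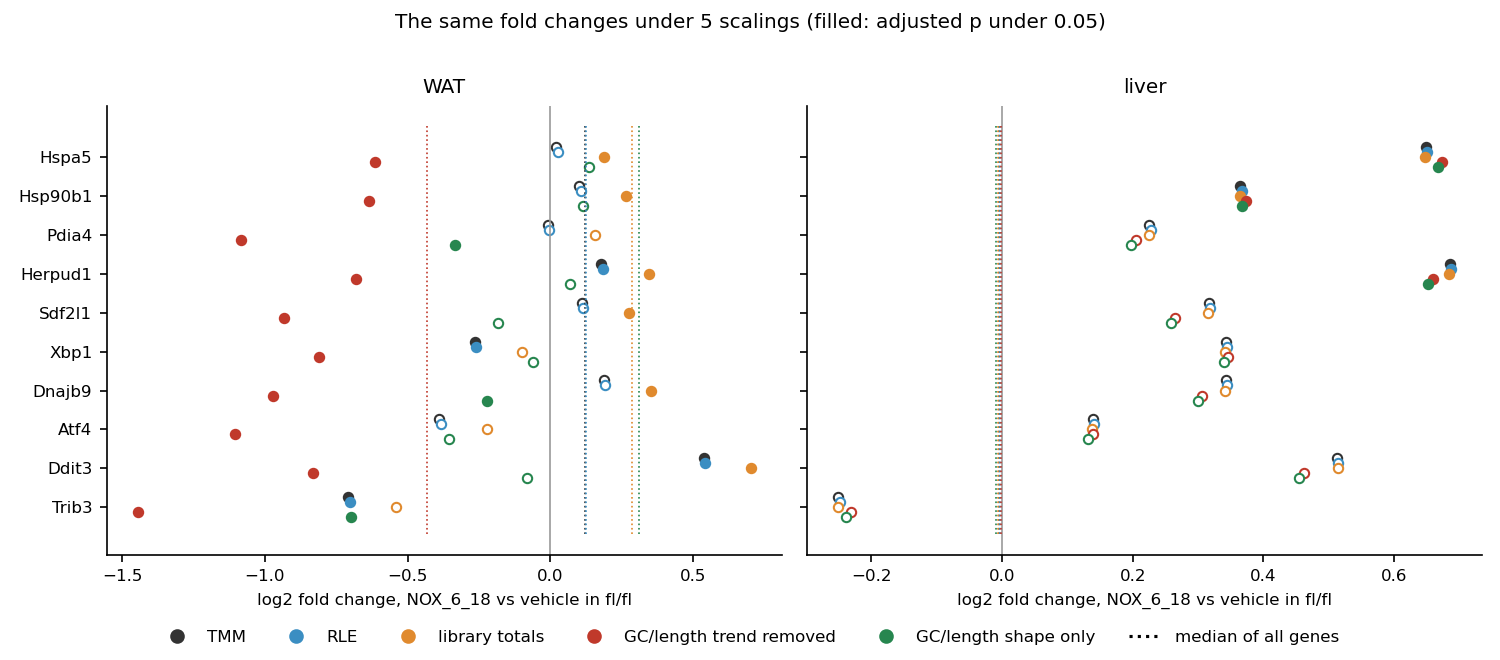
The log2 fold change on NOX_6_18 against vehicle in fl/fl is plotted for each gene under 5 scalings (colours); filled points passed the test and dotted lines mark the median of all genes. In WAT the points spread, with Ddit3 between -0.83 and 0.70, and in liver they nearly coincide.

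The markers that set the WAT libraries of fl/fl on vehicle apart go with each of these WAT results. Of all tested genes in WAT, 37.8% were called on NOX_6_18, 6373 higher and 3411 lower. Besides the spermatid and fibroblast genes, macrophage markers summed to 5791 to 5960 CPM in the other 6 libraries (6 of 10 called lower and 2 higher on NOX_6_18), endothelial markers to 1750 to 1769 in fl/fl on vehicle and 1210 to 1261 elsewhere (6 of 6 lower), and the 9 immediate early genes to 20202.5 to 21139 and 14517 to 15276 (9 of 9 lower). Spermatid genes were called higher in 10 of 10, spermatocyte genes in 7 of 8 and Leydig cell genes in 6 of 6; among the spermatocyte genes Boll was at 0 in fl/fl on vehicle. The part of these differences in the levels of the 10 genes was not tested.

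In WAT the wider lists of the 3 branches held both higher and lower calls on NOX_6_18, at 5 of 10, 7 of 17 and 9 of 27 genes, against 37.8% of all tested genes. These counts describe the listed genes and do not set the branches apart from that background. Of 10 further ATF6 targets, 3 were higher on NOX_6_18, the chaperone Hyou1 (0.63), Creld2 (0.86) and Manf (0.37), and 2 lower, Canx and Cnpy3 (median -0.04); Cnpy3, like Syvn1 and Derl1 below, is named after its value was seen. Hyou1 was higher under each scaling, whereas Creld2 and Manf turned to lower after removal of the GC and length trend. Of 17 further XBP1 targets, 1 was higher, the ubiquitin ligase Syvn1 of ER-associated degradation (0.32), and 6 lower, among them Ssr3 (-0.31), Ostc (-0.41), Spcs3 (-0.29) and Derl1 (-0.32), which serve translocation, glycosylation, signal peptide removal and degradation (median -0.25). With library totals alone that count was 1 higher and 0 lower, so the falls depended on the scaling. Of 27 further PERK-ATF4 targets, 4 were higher, among them the cystine transporter Slc7a11 (1.67) and Slc7a5 (1.01), and 5 lower, among them Atf3 (-0.61) and the seryl-tRNA synthetase Sars (-0.43), with a median of 0.04. In CKO on vehicle the counts were 3 higher and 0 lower for ATF6, 1 and 5 for XBP1, and 5 and 6 for PERK-ATF4, against 36.8% of all tested genes. These counts too do not set the branches apart from that background.

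In WAT on NOX_6_18, 37.8% of the 25871 tested genes were called, 6373 higher and 3411 lower, and the counts below describe the listed genes. Among the sensor genes in WAT, 0 of 12 were higher and 3 lower on NOX_6_18: Rtcb, the ligase that joins cut Xbp1 mRNA (-0.34), the ATF6 protease gene Mbtps2 (-0.57) and Atf6 (-0.26). The sensor count did not exceed the share of all genes. With library totals alone 0 were called, and with only the shape of the GC and length trend removed 5 were higher and 1 lower. Atf6 averaged 143 CPM in the fl/fl vehicle group and 119 on NOX_6_18, Ern1 72.0 and 82.4, and Eif2ak3 60.6 and 56.0. All 6 of the transcripts known to be cut by IRE1 were lower, among them Sparc (-0.83), Col6a1 (-0.71), Pdgfrb (-1.03) and Scara3 (-0.81), and 5 of the 6 were also lower with library totals alone. Sparc, Col6a1 and Pdgfrb are known as genes of fibroblasts and mural cells, whose markers fell between the same libraries (5 of 6 fibroblast genes). Of 14 other folding enzymes, 8 were lower, among them P4hb (-0.40) and the cyclophilin Ppib (-0.46), both of which serve collagen folding; with library totals alone the count was 2 higher and 3 lower.

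**Figure D4:**
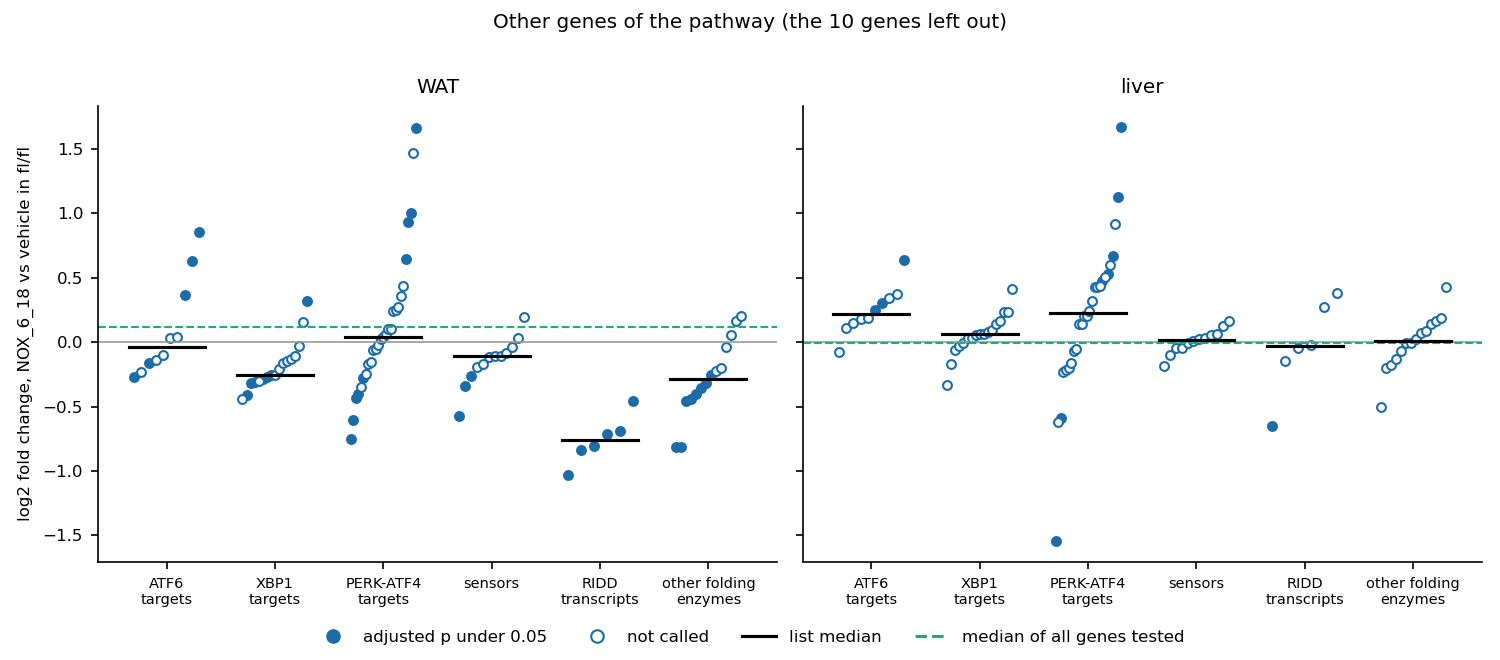
Log2 fold changes on NOX_6_18 against vehicle in fl/fl are plotted for the genes of 6 wider lists with the 10 genes left out; filled points passed the test, the black line is the list median and the dashed line the median of all tested genes (0.12 in WAT, -0.005 in liver). RIDD stands for transcripts cut by IRE1, all 6 of which lie below 0 in WAT.

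The comparisons that leave out fl/fl on vehicle called none of the 10 genes. NOX_6_18 against vehicle within CKO called 0 in WAT, where 0.0155% of all genes were called, and 0 in liver (0.0359%). CKO against fl/fl on NOX_6_18 called 0 in WAT (0.0348%) and 0 in liver (0.0359%). In these 4 comparisons 0 members had an unadjusted p under 0.05 with edgeR, and DESeq2 and limma-voom called 0. The largest absolute log2 differences of a member were 0.24, 0.25, 0.20 and 0.23. For Hspa5 the differences were -0.06 ± 0.06 in WAT and -0.04 ± 0.05 in liver for treatment within CKO. For Herpud1 they were -0.10 ± 0.06 and -0.06 ± 0.07, and for Ddit3 -0.10 ± 0.10 and -0.25 ± 0.19. A miss of the threshold does not show that these groups were alike. With 2 libraries per group, the SE of 0.05 to 0.23 sets what could be seen, and the least precise gene was Trib3.

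The test of treatment by genotype asks whether the difference between NOX_6_18 and vehicle was the same in libraries labelled CKO as in those labelled fl/fl. In liver it called 2 of the 10 genes, against 2.45% of all genes: Hspa5 at -0.69 ± 0.07 (edgeR adjusted p 0.00165) and Herpud1 at -0.74 ± 0.10 (0.00599). Hsp90b1 was at -0.35 ± 0.08 and missed the threshold (0.0588). In WAT it called 3, against 25.3% of all genes: Ddit3 at -0.64 ± 0.14 (0.0102), Herpud1 at -0.28 ± 0.08 (0.0454) and Trib3 at 0.95 ± 0.29 (0.0484). All differences of a tissue contain the same fl/fl vehicle libraries. The WAT calls were the less firm: after removal of the GC and length trend Ddit3 was at 0.73 and Herpud1 at 0.59, and with only its shape removed they were at -0.015 and -0.15 and not called. Herpud1 was not called when any 1 of the 8 WAT libraries was left out (edgeR adjusted p 0.0542 to 0.159), and Ddit3 not without replicate 1 of fl/fl on NOX_6_18 (0.0508). Trib3 was called only with all 8 libraries or without replicate 2 of fl/fl on vehicle, and not without any other single library (0.0707 to 0.161). With all 8 libraries its call was also lost with DESeq2 (adjusted p 0.058), limma-voom (0.051), relative log expression size factors (0.0508), library totals alone (0.0932), no filter (0.0782) or a stricter filter (0.0516). In a fit of all 16 libraries of both tissues the Trib3 and Ddit3 calls were lost too (edgeR adjusted p 0.0579 and 0.0608). Herpud1 lost its call without a filter (edgeR adjusted p 0.0667). With the replicate number as a block in the fit, Herpud1 (0.0612) and Trib3 (0.0721) both lost theirs. The liver calls of Hspa5 and Herpud1 held with each library left out in turn.

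Compared between tissues with 1 scaling over all 16 libraries, most of the 10 genes were higher in WAT than in liver. Without treatment, Hspa5 of the fl/fl vehicle group was at 792.4 and 757.2 CPM in WAT and 232.1 and 227.9 in liver, a log2 difference of 1.75 ± 0.06 (edgeR adjusted p 8.49e-11). Sdf2l1 was at 30.9 and 30.1 against 14.6 and 13.8 CPM (1.10 ± 0.09, 8.2e-07), and Atf4 at 174.2 and 136.0 against 80.45 and 74.23 CPM (1.00 ± 0.11, 1.47e-05). In all, 8 of 10 genes were called, all higher in WAT, where 38.2% of the 26751 tested genes were called in either direction; Ddit3 (0.36 ± 0.16, edgeR adjusted p 0.107) and Trib3 (-0.44 ± 0.22, 0.142) were not. The median of the 10 genes was 0.65 and that of all genes 0.005, but the latter was 0.95 with library totals alone, so the level of the whole comparison depends on the scaling. Under each of the 5 scalings the 8 genes were higher in WAT, with Herpud1 at 0.04 and no longer called once that trend was taken out.

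Over the other 3 groups 7 genes were called higher in WAT and 2 lower, against 69.8% of all genes. Hspa5 was at 1.12 ± 0.03, Sdf2l1 at 0.94 ± 0.05, Dnajb9 at 0.62 ± 0.05 and Atf4 at 0.60 ± 0.07, while Herpud1 was at -0.15 ± 0.04 (edgeR adjusted p 0.0028) and Trib3 at -0.83 ± 0.13 (9.24e-05). Xbp1, higher in WAT in fl/fl on vehicle (0.78 ± 0.10, 5.11e-05), was not called here (0.10 ± 0.06, 0.154). The median of the 10 genes was 0.36 and that of all genes 0.33, 1.43 with library totals alone and -0.44 after removal of the GC and length trend. Under the totals Herpud1 turned to 0.96 and Trib3 to 0.27. With the trend removed Atf4 (-0.39), Ddit3 (-0.98), Dnajb9 (-0.36), Hsp90b1 (-0.52), Pdia4 (-0.81) and Sdf2l1 (-0.34) turned to lower, so that of the 7 genes called higher only Hspa5 was higher in WAT under each of the 5 scalings. Ddit3 was also lower, at -0.12, with only the shape of the trend removed.

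Scaled per kilobase of exon, within each tissue, the order of levels in fl/fl on vehicle was Hspa5 (267 CPM per kb), Hsp90b1 (168), Atf4 (96.0), Pdia4 (73.8), Herpud1 (65.1), Sdf2l1 (40.1), Xbp1 (37.5), Dnajb9 (37.2), Ddit3 (10.7) and Trib3 (2.57) in WAT. The replicates of the neighbours Xbp1 and Dnajb9 overlapped there. In liver Hsp90b1 came first (61.8 CPM per kb), before Hspa5 (37.8), Herpud1 (25.4), Pdia4 (23.9), Atf4 (22.8), Dnajb9 (10.6), Xbp1 (10.4), Sdf2l1 (8.92), Ddit3 (3.98) and Trib3 (1.66). Those 2 overlapped in liver too. Hspa5 made up 41.7 to 43.2% of the counts of the 10 genes in WAT, 23.8 and 24.6% in liver of fl/fl on vehicle and 27.6 to 29.5% in the other liver libraries.

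**Figure D5:**
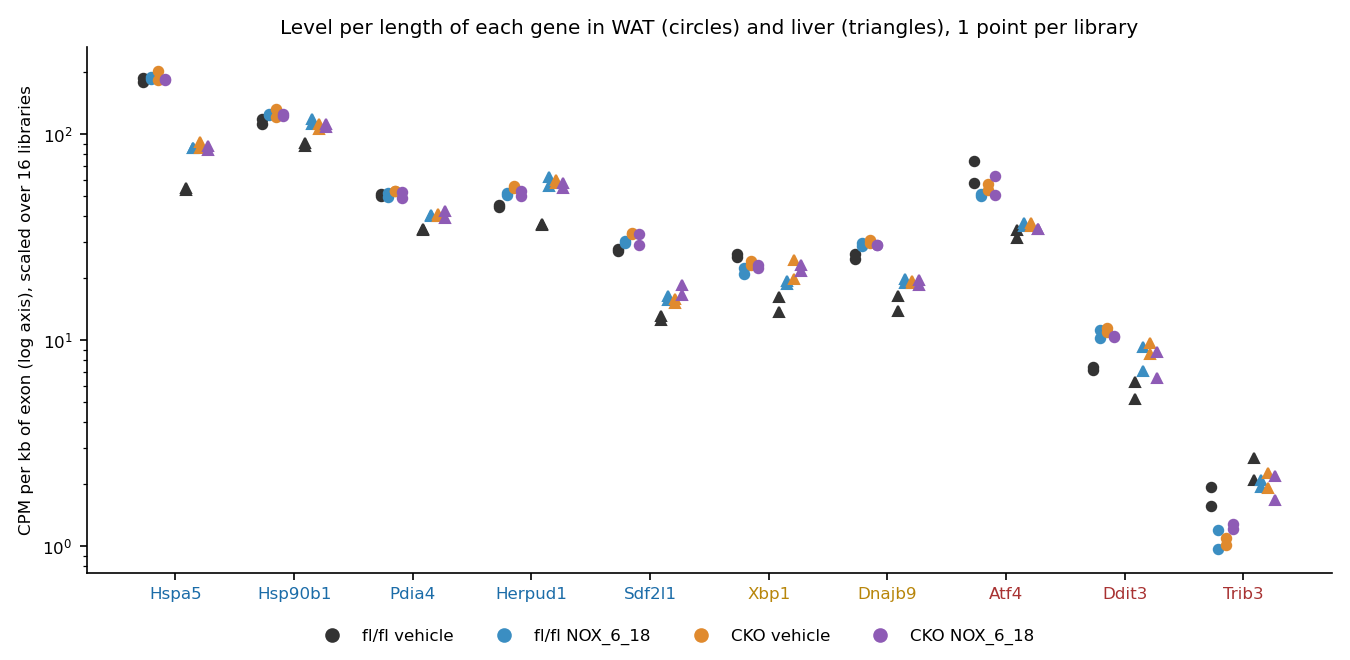
The level of each gene per kilobase of exon is plotted on a log axis, scaled over all 16 libraries, with 1 point per library, circles for WAT, triangles for liver and colours for the groups. The circles of Hspa5 lie above its triangles in every group, while those of Herpud1 and Trib3 in the groups other than fl/fl on vehicle lie lower than theirs.

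The test of treatment by tissue in fl/fl asks whether the NOX_6_18 difference was larger in WAT or in liver. It called 5 of the 10 genes, all lower in WAT, against 14.7% of all genes: Hspa5 (-0.62 ± 0.08, edgeR adjusted p 0.000194), Xbp1 (-0.60 ± 0.14, 0.0142), Atf4 (-0.52 ± 0.16, 0.0482), Herpud1 (-0.50 ± 0.09, 0.00202) and Hsp90b1 (-0.26 ± 0.08, 0.0419). The same test of genotype on vehicle called 3, against 14.2%: Xbp1 (-0.69 ± 0.14, 0.00706), Hspa5 (-0.62 ± 0.08, 0.000199) and Herpud1 (-0.38 ± 0.09, 0.0111). With library totals alone Hspa5 and Herpud1 were the 2 still called for treatment; Xbp1 was then at -0.44 (0.0815), Atf4 at -0.36 (0.213) and Hsp90b1 at -0.10 (0.496). Herpud1 for genotype was at -0.23 (0.121) with the totals. With relative log expression size factors Atf4 (edgeR adjusted p 0.0538) and Hsp90b1 (0.057) lost their call for treatment, and Atf4 also with limma-voom (adjusted p 0.0885). For treatment, Atf4 and Hsp90b1 also lost their call with most single libraries left out (edgeR adjusted p up to 0.184 and 0.145), and Xbp1 without replicate 1 of fl/fl on NOX_6_18 in WAT (0.0647) or replicate 1 of fl/fl on vehicle in liver (0.0643). Ddit3, which had similar log2 differences in both tissues (0.54 and 0.51), gave 0.03 ± 0.23.

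For 1 gene of each branch, the genes with the most similar course over the 8 libraries of a tissue were listed, by the mean absolute difference in log2 CPM centred on each gene's mean. In liver, among 7685 protein-coding genes of at least 10 CPM, those nearest to Hspa5 were Serpina1d (0.0245), Mylip (0.0309), Herpud1 (0.0324), Gsn (0.0335) and Clec4g (0.0358), so another of the 10 genes was among the 5. Those nearest to Dnajb9 in liver were Aamp (0.0312), Zfp335, Pzp, Ppid and Dennd4a (0.0405); liver Ddit3 was under 10 CPM and was not listed. In WAT, among 10693 genes, Hspa5 was nearest to Etf1 (0.0140), Tnfaip6, Stk17b, Rpn1 and Gde1 (0.0232), Dnajb9 to Abhd17b (0.0220), Amd1, Dnajb6, Glul and Ddx1 (0.0230), and Ddit3 to Gprc5a (0.0264), Kat8, Dap3, Carmil1 and Jdp2 (0.0351). The distances describe these 8 libraries, which share the split of fl/fl on vehicle from the rest, and carry no test.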

How the data were processed

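RNA-seq counts of 16 mouse libraries were analysed, 2 in each of 8 groups taken from the sample titles. The authors deposited 1 table of raw counts per gene for each library. The submitters' processing notes name HISAT, featureCounts 1.5.0, DESeq 1.8.3 and GRCm38, without role or order; the strand setting of the counting is not given in the sources used here. Symbols, exon lengths and overlaps came from GENCODE M21 on GRCm38, and promoters from RefSeq on GRCm38.p6.

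The counts were tested as deposited in edgeR 4.0.16 under R 4.3.3 (quasi-likelihood test), with factors from the trimmed mean of M values (TMM), filterByExpr by group and Benjamini-Hochberg adjustment over all tested genes; genes with an adjusted p under 0.05 were called. Each tissue had a single fit of its 8 libraries, and comparisons across tissues used all 16. CPM are counts scaled by library total and TMM factor, and SE was back-computed from the F statistic. The fitting code was checked on simulated counts with known changes.

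The alternatives were relative log expression (RLE) size factors, library totals alone, no filter, a filter of 50 counts in 2 libraries, DESeq2 1.42.0, limma-voom (limma 3.58.1), mitochondrially encoded genes left out, a block for the replicate number, fits of the compared groups alone, a fold threshold (absolute log2 of 1 or more), removal of a trend with GC content and length, and leaving out single libraries. The version that removes only the shape of that trend was chosen after seeing the data. For treatment by genotype, which involves all 4 groups of a tissue, a fit of all 16 libraries took the place of the compared groups alone. The 10 genes, the wider lists and the marker lists were chosen with earlier results of these data known. The text names all 10 genes, Gpr132, the sensor genes, up to 4 called genes of each list by adjusted p, and 5 nearest genes for 1 gene of each branch. At these totals 3 counts correspond to 0.0494 to 0.0658 CPM, and every value of the 10 genes rests on at least 125 counts.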

Additional observations from a re-analysis of the deposited data

Results flagged for a closer look

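The following differences were themselves tested between groups with edgeR's quasi-likelihood test and passed; each is a log2 difference of differences, and all of them contain the fl/fl vehicle libraries. In liver the difference between NOX_6_18 and vehicle differed between libraries labelled CKO and fl/fl for Hspa5 (-0.69, adjusted p 0.00165) and Herpud1 (-0.74, 0.00599). For Hspa5 the difference was 0.65 ± 0.05 within fl/fl and -0.04 ± 0.05 within CKO. For Herpud1 it was 0.69 ± 0.07 and -0.06 ± 0.07. These 2 interaction values thus restate the distance of the fl/fl vehicle libraries from the rest and are no separate result. In WAT the difference between NOX_6_18 and vehicle differed between these labels for Ddit3 (-0.64, 0.0102), Herpud1 (-0.28, 0.0454) and Trib3 (0.95, 0.0484). The Trib3 call was lost with DESeq2 (adjusted p 0.058), limma-voom (0.051), relative log expression size factors (0.0508) and library totals alone (0.0932). After removal of the GC and length trend the WAT difference turned to 0.73 for Ddit3 and 0.59 for Herpud1. With only the shape of that trend removed neither was called. Ddit3 also lost its call in a fit of all 16 libraries (edgeR adjusted p 0.0608). Herpud1 lost its call without a filter (0.0667) and with the replicate number as a block (0.0612).

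The difference between NOX_6_18 and vehicle in fl/fl was lower in WAT than in liver for Hspa5 (-0.62, adjusted p 0.000194), Xbp1 (-0.60, 0.0142), Atf4 (-0.52, 0.0482), Herpud1 (-0.50, 0.00202) and Hsp90b1 (-0.26, 0.0419) by edgeR's test. The difference between CKO and fl/fl on vehicle was lower in WAT than in liver for Xbp1 (-0.69, 0.00706), Hspa5 (-0.62, 0.000199) and Herpud1 (-0.38, 0.0111). With library totals alone some of these calls were lost in edgeR's test. For treatment these were Xbp1 (-0.44, adjusted p 0.0815), Atf4 (-0.36, 0.213) and Hsp90b1 (-0.10, 0.496), and for genotype Herpud1 (-0.23, 0.121). The Atf4 call for treatment was also lost with limma-voom (adjusted p 0.0885). In edgeR it was lost with RLE size factors (0.0538) and with only the groups compared (0.082). Hsp90b1 lost its call in edgeR with RLE size factors (0.057), the replicate number as a block (0.0586) and only the groups compared (0.0815). In liver the 2 fl/fl vehicle libraries lay below the other 6 for each gene named here except Trib3, and in WAT they lay outside the other 6 for each except Hspa5 and Atf4.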

How the results depend on the processing

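The 4 comparisons without fl/fl on vehicle called 0 of the 10 genes under every alternative run, and the liver calls of Hspa5 and Herpud1 kept their direction and call under all of them but the fold threshold. A fold threshold (absolute log2 of 1 or more) left 0 called in each other comparison within a tissue and in both interactions with tissue, 3 in WAT against liver in fl/fl on vehicle and 1 over the other 3 groups, since the changes were smaller. After removal of the GC and length trend, which centres each library on its mean over genes, 10 were called in each WAT comparison with fl/fl on vehicle (all lower), in the WAT interaction (all higher) and in both interactions with tissue. Of all 25871 genes tested in WAT, 15167, 15160 and 15247 were called in these comparisons, with 10592, 10555 and 10647 of them lower. In the WAT interaction 12414 were called, 8574 of them higher. The 10 genes thus moved with the bulk of the tested genes. In WAT Ddit3 was then at -0.83, -0.78 and -0.88 in treated fl/fl, CKO on vehicle and treated CKO, Herpud1 at -0.68, -0.58 and -0.68 and Dnajb9 at -0.92 in CKO on vehicle, and in the WAT interaction Ddit3 was at 0.73 and Herpud1 at 0.59. In WAT against liver over the other 3 groups Dnajb9 was then at -0.36, Hsp90b1 at -0.52, Sdf2l1 at -0.34, Ddit3 at -0.98, Pdia4 at -0.81 and Atf4 at -0.39. With only the shape of the trend removed Ddit3 was at -0.081, -0.037 and -0.13 in WAT and at -0.12 in WAT against liver over the other 3 groups, Dnajb9 was at -0.18 in CKO on vehicle, and 8 and 5 genes were called in the interactions of treatment and of genotype with tissue. With library totals alone 7 genes were called in WAT in CKO on vehicle, 5 in CKO on NOX_6_18 and 2 in the treatment by tissue interaction, and over the other 3 groups Herpud1 was at 0.96 and Trib3 at 0.27. Of all 25871 genes tested in WAT, 8815 and 9123 were called under the totals in these 2 WAT comparisons. RLE size factors called 3 in the treatment by tissue interaction. With only the groups compared, 1, 2 and 1 were called in the 3 WAT comparisons and 3 in the treatment by tissue interaction. In the WAT interaction 1 was called in a fit of all 16 libraries and 1 without a filter. The all-gene counts with only the groups compared were 8060 of 23641, 7314 of 23423 and 8164 of 23630 in the 3 WAT comparisons. For the WAT interaction they were 5133 of 26751 in the fit of 16 libraries and 6070 of 38574 without a filter. In the main setting 14.7 and 14.2% of all genes were called in the interactions of treatment and of genotype with tissue. Beyond what these settings change by construction, the cause was not tested.

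Leaving out 1 library puts a single library in a group, so only effect sizes are given here. In WAT on NOX_6_18 the log2 fold change ranged from 0.46 to 0.63 for Ddit3 and from 0.16 to 0.21 for Herpud1. For Trib3 it ranged from -0.86 to -0.53 and for Xbp1 from -0.29 to -0.22. In liver on NOX_6_18 it ranged from 0.64 to 0.66 for Hspa5, from 0.61 to 0.76 for Herpud1 and from 0.32 to 0.41 for Hsp90b1. The replicate numbers were not shown to pair the libraries: the differences between replicates 1 and 2 correlated at -0.071 to 0.169 between WAT groups (13461 genes) and at -0.06 to 0.02 between liver groups (10307 genes). With the replicate number as a block, 1 gene was called in the WAT interaction in place of 3, and the adjusted p of edgeR was 0.0549 and 0.0525 for Xbp1 in liver of CKO on vehicle and on NOX_6_18 and 0.0597 for Herpud1 in WAT on NOX_6_18. Of the 10 genes, Trib3 had the fewest counts (125 to 269 in a library) and the widest SE.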

Other observations

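The deposited tables hold 143 genes with the same count in all 16 libraries, 139 of them at exactly 1, with a median exon length of 79 bases against 1231 for all genes. A second, short Ddit3 entry of 105 bases is among them, at 1 in every library. None of the 10 genes described here is constant, and the longer Ddit3 entry was used.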
